A study of Mus musculus with 4 samples.

Results

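The genes described here encode synaptic adhesion proteins and the postsynaptic scaffold proteins that bind them, measured in *Lmx1a-dr/dr* midbrain of mouse embryos at E12.5. The 32 genes were chosen by family and not by a cut-off on their values, but with earlier results of these data known. They were the *Lrrc4* family (3 genes), the neuroligins (3), the neurexins *Nrxn2* and *Nrxn3* (2), the *Lrrtm* (4) and *Slitrk* (6) genes, and the scaffold families *Dlgap* (4), *Dlg* (4), *Shank* (3) and *Homer* (3). Every probe that the array annotation assigns to one of these symbols was taken. All 32 genes were on the array, with 91 probes, out of 18322 gene symbols and 41174 probes.

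*Lmx1a* is a LIM-homeodomain transcription factor, and *Lmx1a-dr/dr* embryos are homozygous for *dreher*, a mutation of this gene that the study treats as a null allele. Each of 4 dual-colour Agilent arrays, replicates a to d, carried RNA pooled from E12.5 *Lmx1a-dr/dr* midbrains, micro-dissected tegmental tissue that by the study's description also took in diencephalic and retromammillary parts, against 1 common RNA pool from *Lmx1a-+/+* midbrains, which the study describes as wild-type littermates of the same age. The mutant RNA was labelled with Cy3 in replicates a and c and with Cy5 in replicates b and d. Values are log2 ratios of dr/dr over wild-type, so that negative values mean less RNA in the mutant. Because the wild-type RNA is 1 pool, each ratio is set against 0 and how far wild-type litters differ from each other is not part of any test. Both tests fit the dye of the mutant RNA for each probe, so the error in each test statistic rests on the spread between arrays with the mutant in the same dye. A difference between the pools of the dye orientations is taken up as dye. The variance of all probes also enters both tests.

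At synapses, adhesion proteins on the axon and the dendrite bind each other across the cleft and organize release sites and receptor clusters. Neurexins are presynaptic and bind neuroligins and Lrrtm proteins, whereas Lrrc4 and Slitrk proteins are postsynaptic leucine-rich repeat proteins that bind netrin-G or receptor tyrosine phosphatases on the axon. Inside the dendrite, Dlg proteins hold adhesion proteins and receptors through PDZ domains, Dlgap proteins bind the guanylate kinase domain of Dlg, Shank proteins bind Dlgap, and Homer proteins bind Shank and metabotropic glutamate receptors. At E12.5 midbrain neurons are being born and extend axons, and mature synapses have not formed.

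*Lrrc4b*, a postsynaptic adhesion gene, and *Dlgap4*, a scaffold gene, fell in *Lmx1a-dr/dr* midbrain to 62.6% and 63.2% of the wild-type level. These were the only 2 of the 32 genes with a probe called by the permutation F2 test that the methods of the study name, and 0 genes were called higher. The F2 test shuffles the residuals of a fit without genotype 5000 times over all probes and arrays. It calls a probe at a family-wise p under 0.05. Over the whole array 0.360% of genes had a probe called lower by this test. limma, fitted with dye and genotype for each probe and adjusted by Benjamini-Hochberg over the 41174 probes, called 0 of the 91 probes at an adjusted p under 0.05, as it did for 0% of the probes on the array. At an unadjusted limma p under 0.05, 9 of the 32 brightest probes were lower, beside 10.4% of all genes, and 4 were higher, beside 7.90%. In RNA from dissected tissue that holds many cell types, fewer cells of a type and less RNA per cell cannot be told apart.

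The 300-base windows around the transcription start are shown for the 2 genes that fell, and differ in base composition. They run 5′ to 3′ from 250 bases before to 50 bases after the start, from the RefSeq table of build GRCm38.p6, with each CG dinucleotide in capitals. The *Lrrc4b* window lies on the plus strand at chr7:44442237-44442536, and the *Dlgap4* window on the plus strand at chr2:156720715-156721014.
*Lrrc4b*: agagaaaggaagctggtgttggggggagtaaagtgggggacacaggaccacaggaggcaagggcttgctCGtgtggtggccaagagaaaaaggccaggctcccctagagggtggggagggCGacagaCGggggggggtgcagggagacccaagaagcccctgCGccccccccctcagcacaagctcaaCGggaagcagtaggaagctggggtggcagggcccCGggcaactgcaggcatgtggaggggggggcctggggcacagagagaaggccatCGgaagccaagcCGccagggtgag
*Dlgap4*: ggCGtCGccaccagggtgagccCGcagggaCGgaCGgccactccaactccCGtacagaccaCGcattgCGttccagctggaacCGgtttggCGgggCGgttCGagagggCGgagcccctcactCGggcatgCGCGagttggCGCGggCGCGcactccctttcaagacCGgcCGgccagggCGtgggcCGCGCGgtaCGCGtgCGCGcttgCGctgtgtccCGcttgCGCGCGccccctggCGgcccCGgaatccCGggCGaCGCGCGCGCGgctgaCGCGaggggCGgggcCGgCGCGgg
The *Dlgap4* window holds 50 CG dinucleotides at 76.3% GC, and 0.855% of the 32851 promoters in the table hold as many. The *Lrrc4b* window holds 8 CG at 66.3% GC, close to the median of 7.0 over all promoters. Neither window holds the homeodomain core TAAT on either strand, which 58.0% of the promoters hold, or the longer TAATTA, which contains TAAT, is its own reverse complement and is in 5.29% of the promoters. The table had 41 promoters for 25 of the 32 genes, of which 26 held TAAT and 1 held TAATTA.

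The arrays differed in brightness and by dye. Median spot intensity was 137.4 to 174.2 in Cy5 and 70.0 to 84.7 in Cy3, above median local backgrounds of 32.5 to 36.4, and 78.2% to 98.9% of probes per channel exceeded the local background mean by 2 SD. Over the probes, which share each array and are no replicates, the ratios correlated at 0.639 and 0.579 between arrays with the mutant in the same dye and at -0.342 to -0.29 between the others, and the dyes are those stated in the labels. Different mutant pools were also used in each orientation, so dye and pool cannot be told apart. No background was subtracted, which draws the ratios of dim probes towards 0. The probe for *Lmx1a* itself read -0.61 (SE 0.035, n = 4 arrays), or 65.5% of wild-type, and was lower on all 4 arrays. The study's methods describe the allele as a point mutation, which need not remove the transcript, and where this probe lies relative to it is not known here. The level of this probe is therefore no full check of the genotype.

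The brightest probe of each gene stands for it below. Of these, 31 of 32 were above background in both channels on all 4 arrays, the exception being *Slitrk2*, which was above it on 4 arrays for dr/dr and on 3 for wild-type. Fitted log2 ratios ran from -0.68 to 0.30 with a median of -0.057, beside a median of -0.004 over all genes. There were 21 negative and 11 positive ratios, that is 65.6% negative beside 52.8% of all genes. Most changes were small, with 18 of the 32 between -0.1 and 0.1.

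**Figure D1:**
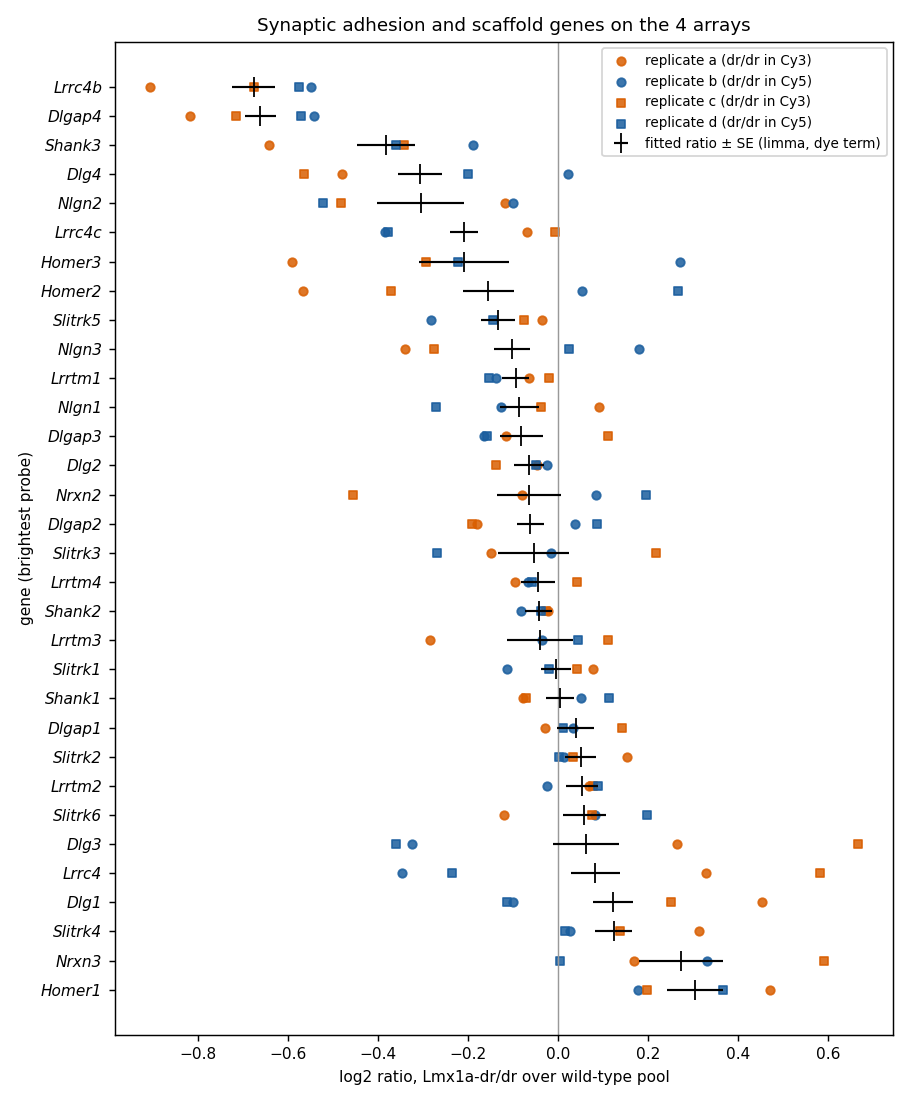
Log2 ratio of Lmx1a-dr/dr over the wild-type pool (x axis) for the brightest probe of each of the 32 genes (y axis, ordered by fitted ratio). Points are the 4 arrays, coloured by the dye of the mutant RNA, and black marks are the limma estimate with its moderated SE. Lrrc4b and Dlgap4 lie apart at the low end, with all 4 arrays below -0.5, and for genes such as Lrrc4 and Dlg3 the points of each dye orientation lie on opposite sides of 0.

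The same sign on all 4 arrays was seen for 13 genes. *Dlg2*, *Dlgap4*, *Lrrc4b*, *Lrrc4c*, *Lrrtm1*, *Nlgn2*, *Shank2*, *Shank3* and *Slitrk5* (9 genes) were lower on every array, beside 9.00% of all genes, and *Homer1*, *Nrxn3*, *Slitrk2* and *Slitrk4* (4 genes) were higher on every array, beside 6.74%. With median centring in place of the loess curve 4 genes had the same sign throughout, *Lrrc4b* and *Lrrtm1* lower and *Lrrc4* and *Slitrk4* higher. *Dlgap4* was then not lower on every array, although its fitted ratio was -0.61 and F2 still called it. The dye effect was larger than the genotype effect, so that the mean of each dye orientation had the opposite sign, for 14 of the 32 genes and for 11168 of all 18322 genes.

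*Lrrc4b*, whose protein binds receptor tyrosine phosphatases of the LAR type on the axon, was measured by 1 probe. Its log2 ratio was -0.91 in replicate a, -0.55 in b, -0.67 in c and -0.58 in d. All 4 arrays were thus well below 0, with the mutant RNA in either dye. The fitted ratio was -0.68 (SE 0.048, n = 4 arrays) with a family-wise permutation p of 0.0008 and a limma adjusted p of 0.0959. Raw spot intensities show the same within a dye. In Cy3 the dr/dr RNA read 105.9 and 107.1 and the wild-type pool 159.1 and 162.9, and in Cy5 dr/dr read 249.6 and 250.9 and wild-type 464.2 and 385.6.

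The other members of the *Lrrc4* family, whose proteins bind netrin-G proteins on the axon, had smaller ratios. *Lrrc4* read 0.33, -0.35, 0.58 and -0.23 in replicates a to d. Its sign followed the dye, positive where dr/dr was in Cy3 and negative where it was in Cy5, and the fitted ratio was 0.08 (SE 0.054, limma adjusted p = 0.539). *Lrrc4c* had a fitted ratio of -0.21 (SE 0.031, limma adjusted p = 0.106), with a mean of -0.04 where the mutant was in Cy3 and -0.38 where it was in Cy5, and its dimmer probe was at -0.01. The *Lrrc4b* ratio was below that of *Lrrc4* on 4 of 4 arrays, with a mean log2 difference of -0.76 (SD 0.57), and below that of *Lrrc4c* on 4 of 4, with a mean of -0.47 (SD 0.34). With 4 arrays the exact two-sided sign-flip permutation test of such a difference cannot give a p below 0.125.

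The neuroligins, postsynaptic partners of the neurexins, had 3 negative fitted ratios out of 3, and 0 were called by F2 or by limma. *Nlgn2*, the neuroligin of inhibitory synapses, read -0.12 in replicate a, -0.10 in b, -0.48 in c and -0.52 in d. It was lower on all 4 arrays, but the ratios of c and d lay far from those of a and b. The fitted ratio was -0.30 (SE 0.097, limma adjusted p = 0.234), and with the median spot signal in place of the mean *Nlgn2* was called lower by F2 as well. *Nlgn3* had a fitted ratio of -0.10 at its brightest probe and -0.15 at the other. *Nlgn1*, the neuroligin of excitatory synapses, had 10 probes: the brightest was at -0.09, and the other 5 above background were all positive, at up to 0.18.

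Neurexins are the presynaptic partners in these contacts, and *Nrxn3* was the member whose probes differed most. Its brightest probe read 0.17 in replicate a, 0.33 in b, 0.59 in c and 0.00 in d, for a fitted ratio of 0.27 (SE 0.093, limma adjusted p = 0.255). It was positive on all 4 arrays, but replicate d was almost at 0. Of its 8 probes above background, 6 were positive and 2 were negative. The fourth brightest was at -0.26 (SE 0.044, limma adjusted p = 0.114) and the seventh brightest at -0.21 (SE 0.037, limma adjusted p = 0.116), and both were lower on all 4 arrays. The neurexin genes are large and give many transcripts, and which of them each probe detects was not examined here. *Nrxn2* had fitted ratios of -0.06 and -0.08 at its 2 probes, both above background.

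The *Lrrtm* genes, postsynaptic ligands of neurexins, all lay between -0.09 and 0.05, with 3 negative and 1 positive ratio. *Lrrtm1* was the lowest at -0.09 (SE 0.030, limma adjusted p = 0.236) and was lower on all 4 arrays, at -0.15 to -0.02. The *Slitrk* genes were evenly divided, with 3 negative and 3 positive ratios. *Slitrk5* was the lowest at -0.13 (SE 0.038), lower on all 4 arrays at -0.28 to -0.03. *Slitrk4* read 0.31 in replicate a, 0.03 in b, 0.14 in c and 0.02 in d. It was positive on all 4 arrays, yet close to 0 in both arrays with dr/dr in Cy5, and the fitted ratio was 0.12 (SE 0.041, limma adjusted p = 0.246). *Slitrk1* (-0.003), *Slitrk2* (0.05), *Slitrk3* (-0.05) and *Slitrk6* (0.06) were all within 0.1 of 0, and 0 genes of either family were called by F2 or by limma.

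Among the scaffold genes, *Dlgap4*, which links Dlg to Shank proteins, had 3 probes. The brightest read -0.82 in replicate a, -0.54 in b, -0.71 in c and -0.57 in d. All 4 arrays were well below 0 in either dye orientation, and the fitted ratio was -0.66 (SE 0.034, n = 4 arrays) with a family-wise permutation p of 0.0004 and a limma adjusted p of 0.0959. In Cy3 its dr/dr spots read 600 and 553.7 and the wild-type spots 844 and 805.6, and in Cy5 dr/dr read 1683 and 1612 and wild-type 2829 and 2508. The second probe was also negative on all 4 arrays but more variable, at -0.65, -0.09, -0.38 and -0.82, with a fitted ratio of -0.49 (SE 0.133, limma adjusted p = 0.188, family-wise permutation p = 1). The third probe was near the local background and read -0.05, 0.01, -0.02 and 0.11, for a fitted ratio of 0.01. A mean over the 3 probes gave -0.38.

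*Dlgap1*, *Dlgap2* and *Dlgap3*, which encode proteins of the same binding function, had fitted ratios of 0.04, -0.06 and -0.08, each with an unadjusted limma p above 0.05 at the brightest probe. The *Dlgap4* ratio was below each of them on 4 of 4 arrays, with a mean log2 difference of -0.70 (SD 0.14) from *Dlgap1*, -0.60 (SD 0.061) from *Dlgap2* and -0.58 (SD 0.22) from *Dlgap3*. The same limit of 0.125 on the exact sign-flip test holds for these differences.

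**Figure D2:**
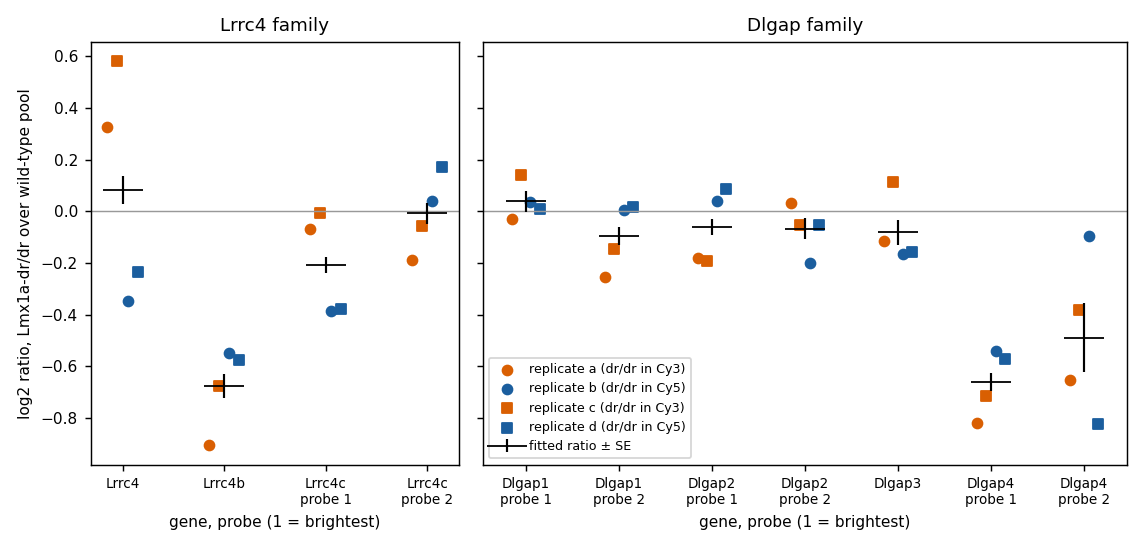
Log2 ratio of Lmx1a-dr/dr over the wild-type pool (y axis) for every probe of the Lrrc4 and Dlgap families that was above background in both channels on all arrays (x axis, probes numbered from the brightest). Points are the 4 arrays, and black marks are the fitted ratio with its SE. The Lrrc4b probe and the first Dlgap4 probe are below -0.5 on all 4 arrays, the second Dlgap4 probe spreads from -0.82 to -0.09, and the family members beside them lie nearer to 0 except for the dye-dependent Lrrc4.

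*Shank3*, which encodes a master scaffold of excitatory synapses, was next lowest of the 32 genes. It read -0.64 in replicate a, -0.19 in b, -0.34 in c and -0.36 in d. All 4 arrays were below 0, and the fitted ratio was -0.38 (SE 0.064), with a limma adjusted p of 0.114 and a family-wise permutation p of 0.977. *Shank1* was at 0.005 and *Shank2* at -0.04, both with dimmer probes, at a mean log2 intensity of 5.73 and 6.24 beside 7.75 for *Shank3*, where ratios are drawn more towards 0.

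*Dlg4*, the main Dlg protein of the postsynaptic density, read -0.48 in replicate a, 0.02 in b, -0.56 in c and -0.20 in d. It was lower on 3 of 4 arrays, and lower where dr/dr was in Cy3 (mean -0.52) than where it was in Cy5 (mean -0.09). The fitted ratio was -0.31 (SE 0.049, limma adjusted p = 0.111), and its second probe, at -0.13, was lower on all 4 arrays. *Dlg1*, whose protein also occurs at junctions of epithelial cells, read 0.45, -0.10, 0.25 and -0.11 in replicates a to d. Its sign thus followed the dye, with a fitted ratio of 0.12 (SE 0.044, limma adjusted p = 0.275), while its other 3 probes above background were also positive, at 0.11 to 0.24. *Dlg3* was at 0.06 with a mean of 0.47 in one dye orientation and -0.34 in the other.

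*Dlg2* had the most probes, 13, and its fitted ratios ran from -0.07 to 0.23. The brightest was at -0.06 and lower on all 4 arrays. The probe at 0.23, sixth in brightness, read 1.04 in replicate a, -0.39 in b, 1.21 in c and -0.93 in d. These were the widest ratios of any *Dlg2* probe and changed sign with the dye, with a fitted dye effect of -0.89 and an SE of 0.098 on the genotype effect.

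*Homer1*, whose protein couples Shank to metabotropic glutamate receptors, had the highest ratio of the 32 genes. It read 0.47 in replicate a, 0.18 in b, 0.20 in c and 0.37 in d. All 4 arrays were above 0 in both dye orientations, and the fitted ratio was 0.30 (SE 0.062), with a limma adjusted p of 0.135 and a family-wise permutation p of 1. Its other 3 probes above background were positive but smaller, at 0.02 to 0.13, so that the mean over its 7 probes was 0.09. *Homer2* and *Homer3* had negative fitted ratios of -0.15 and -0.21 at their brightest probes, each with both signs among the arrays. The second *Homer2* probe, almost as bright, was at -0.16 (SE 0.040, limma adjusted p = 0.176) and was lower on all 4 arrays, at -0.21 to -0.05. A further probe carries an older clone name now given to *Homer2*; it was left out by the rule and read 0.04.

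**Figure D3:**
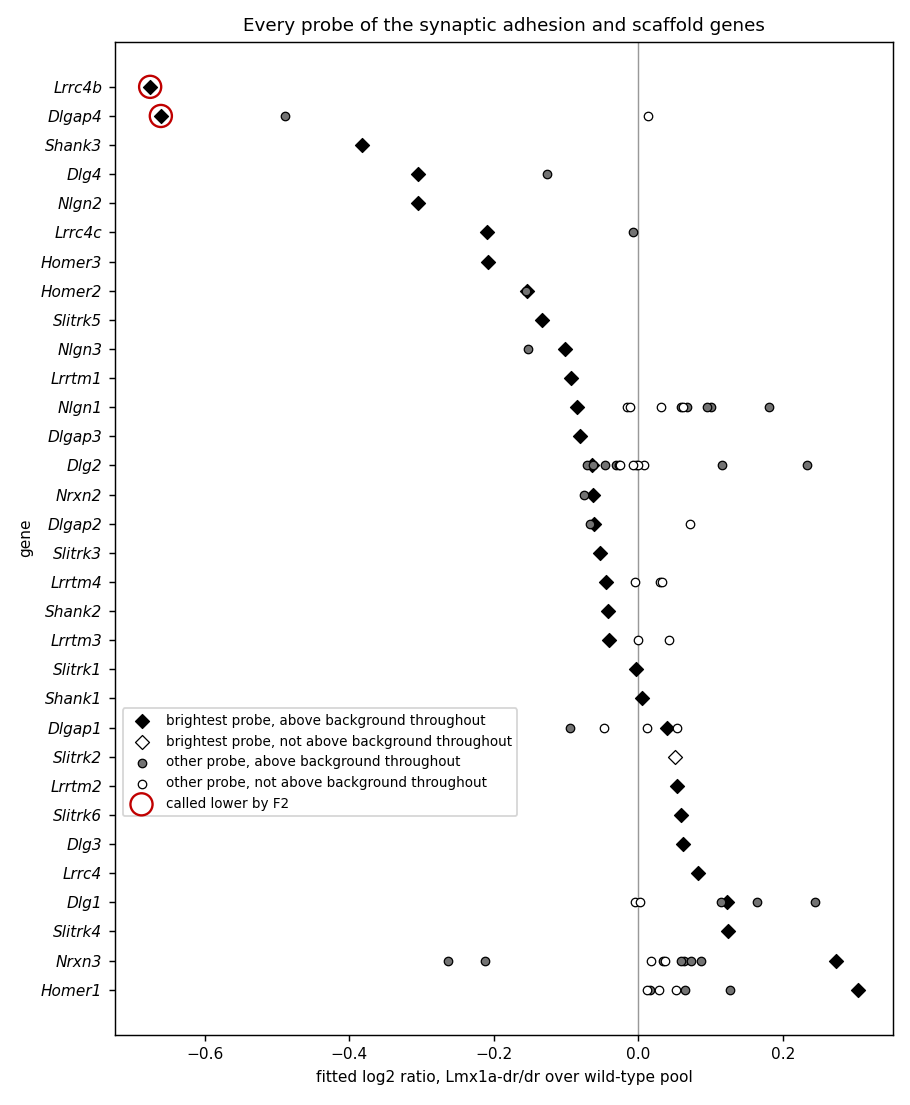
Fitted log2 ratio of Lmx1a-dr/dr over the wild-type pool (x axis) for each of the 91 probes, by gene (y axis, ordered by the brightest probe). Diamonds are the brightest probes, circles the others, filled symbols those above background in both channels on all 4 arrays, and red rings the 2 probes called lower by F2. Nrxn3 spreads from -0.26 to 0.27, and Dlg1 and Homer1 have no probe above background below 0.

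Over all 91 probes the ratios were evenly divided, with 46 negative and 45 positive and a median of -0.001. Of these probes, 65 were above background in both channels on all 4 arrays, and 37 of the 65 were negative. Probes of 1 gene are not replicates of the genotype. Among the 13 genes with several probes above background, all probes were negative for 7, all were positive for *Dlg1* and *Homer1*, and both signs occurred for *Dlgap1*, *Dlg2*, *Nlgn1* and *Nrxn3*. For the 17 genes with 1 probe, *Lrrc4b* and *Shank3* among them, no second probe was there to compare.

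Of the 18 adhesion genes 12 had negative ratios (66.7%, median -0.05), and of the 14 scaffold genes 9 (64.3%, median -0.06), beside 52.8% of all genes. Each class held 1 gene called lower by F2, beside 0.360% of all genes.

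Other genes of the same synaptic structures were compared as fixed lists. Of 30 further synaptic organizers, such as netrin-Gs, LAR-type phosphatases, Lrfn, Flrt and Cadm proteins, 19 had negative ratios (63.3%, beside 52.8% of all genes) with a median of -0.04. F2 called 0 of them, beside 0.360% of all genes called lower. At an unadjusted limma p under 0.05 there were 8 lower and 1 higher, beside 10.4% and 7.90% of all genes. They ran from *Cadm4* at -0.38 to *Cadm2* at 0.12, both immunoglobulin adhesion proteins. Of 22 measured genes among 26 further PDZ and postsynaptic scaffolds, 13 had negative ratios (59.1%) with a median of -0.03, from *Apba2* at -0.31 to *Magi3* at 0.10. F2 called 0, with 7 lower and 0 higher at the unadjusted p, against the same shares of all genes.

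For the presynaptic release machinery, 14 of 16 measured genes had negative ratios (87.5%, beside 52.8% of all genes), with a median of -0.14 and medians of -0.19, -0.10, -0.17 and -0.06 in replicates a to d. Only 2 of the 16 were lower on all 4 arrays, beside 9.00% of all genes, and 0 were higher on all 4, beside 6.74%. *Syp*, the synaptic vesicle protein synaptophysin, fell by 0.38 on the log2 scale (SE 0.031, family-wise permutation p = 0.015) and was the only one of the 16 called by F2, beside 0.360% of all genes. At the unadjusted limma p, 6 of the 16 were lower, beside 10.4% of all genes, and 0 were higher, beside 7.90%. *Vamp2*, the vesicle SNARE protein, was the lowest at -0.47 (SE 0.153, limma adjusted p = 0.239), with ratios of -0.44, -0.76, -0.77 and 0.08, and *Snap25*, its partner on the plasma membrane, was the highest at 0.09.

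Markers of the cells in this tissue were read beside these genes. Of 10 pan-neuronal markers 5 were lower and 5 higher, with a median of 0.04, from *Tubb3*, neuronal tubulin, at -0.35 to *Elavl4*, a neuronal RNA-binding protein, at 0.19. Their summed raw intensity was 15050 to 48620 in dr/dr and 13440 to 55940 in the wild-type pool, ranges that follow the dye. Both *Tubb3* and *Elavl4* differed by dye orientation. With the mutant in Cy3 and in Cy5, *Tubb3* had means of -0.80 and 0.11, and *Elavl4* 0.44 and -0.05. Of 9 measured neural progenitor markers 7 were higher, with a median of 0.06 and *Mki67*, a proliferation marker, highest at 0.26. F2 called 0 genes of either list. At the unadjusted limma p, 1 neuronal marker was lower and 3 were higher, and 0 progenitor markers were lower and 2 higher. The shares of all genes were 10.4% lower and 7.90% higher. Midbrain markers were present on all arrays. Of the 10, 7 were lower and 3 higher, with a median of -0.06, from *Nr4a2* at -0.75 to *Otx2* at 0.20. F2 called *Nr4a2* and *Th* (-0.56) lower, both expressed in dopaminergic neurons, beside 0.360% of all genes called lower. *En1*, at -0.48, was not called. *Pitx3*, also a gene of dopaminergic neurons, was at -0.08 with both signs among the arrays. Markers of endothelium, with 5 of 5 negative, lay between -0.07 and -0.04, those of microglia between -0.11 and 0.10, and those of mesenchyme between -0.01 and 0.39, with 5 of 6 positive and *Lum* highest. Forebrain markers ran from -0.22 to 0.09, hindbrain markers from -0.22 to 0.09 with 2 of 5 not above background on every array, erythroid markers from -0.19 to 0.28 and glial markers from -0.28 to -0.01. No marker of these lists was at background on every array. The part of cell composition in the ratios of *Lrrc4b* and *Dlgap4* was not tested.

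*Lrrc4b* stayed between -0.74 and -0.61 and *Dlgap4* between -0.69 and -0.61 at its brightest probe under every processing tried on all 4 arrays. With any 1 of the 4 arrays left out, their ratios were -0.73 to -0.62 and -0.69 to -0.64, but F2 then called 0 of the 32 genes, whichever array was removed, and 0 to 7 of the 41174 probes.

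**Figure D4:**
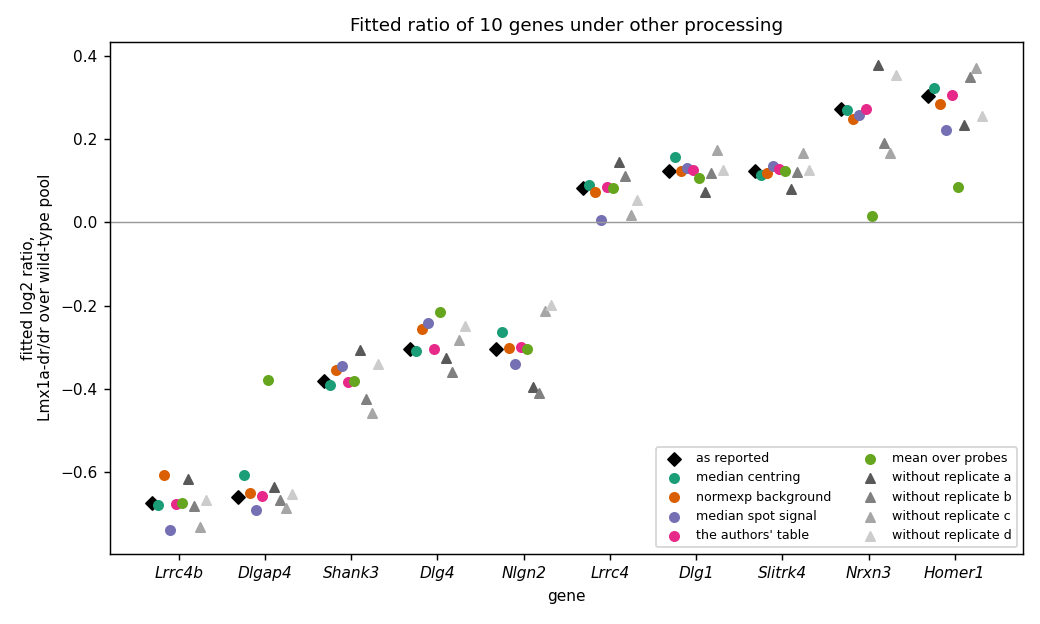
Fitted log2 ratio of Lmx1a-dr/dr over the wild-type pool (y axis) of the 5 lowest and 5 highest genes (x axis) as reported (diamonds), under 5 other ways of processing all 4 arrays (circles) and with 1 array left out (triangles). Lrrc4b and Dlgap4 keep their size except where Dlgap4 is averaged over its 3 probes (-0.38), and Nrxn3 and Homer1 drop to 0.02 and 0.09 when averaged over their probes.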

How the data were processed

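RNA from dissected E12.5 midbrain was measured on 4 dual-colour arrays. The authors deposited, for each channel, spot intensity and local background as read by ImaGene, with no background subtracted. They also deposited a table of log2 ratios after print-tip loess, in the direction dr/dr over wild-type in all 4 columns (r = 0.964 to 0.982 with the ratios used here, medians -0.011 to 0.017), which serves as an alternative only.

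Log2 ratios were computed from mean spot intensities with 1 loess curve per array (span 0.3, 4 iterations, limma 3.58.1, R 4.3.3). The 4046 control spots had no weight, and the other 41174 were tested with no filter on dim probes. limma (lmFit, eBayes) fitted dye and genotype per probe, with 2 residual degrees of freedom and Benjamini-Hochberg adjustment. SE is the moderated error of that fit and leaves out the dye effect. The permutation F2 test of the methods was run in Python 3.11.15 (numpy 2.4.6), and its smallest possible family-wise p is 0.0002. "Fell" is used of its calls only. Both tests were also run on simulated arrays with independent errors and no pool effect, a simpler setting than these arrays.

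Gene names are those of the array annotation, which gives 1 symbol for 34186 probes and none for 6988. The probe with the highest mean log2 intensity stands for a gene. Genes, lists and tests were chosen with earlier results of these data known. Values on each array are given for every probe of a called gene and for the brightest probe of the 5 lowest and 5 highest genes above background. The ratios of other probes given by array (*Dlg2*, *Vamp2*) were chosen after their values were seen. The number of arrays limits the precision. Alternatives were other normalizations, background, spot signal, dye, filter, variance and probe settings, and each array left out.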

Additional observations from a re-analysis of the deposited data

Results flagged for a closer look

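Of the 91 probes, 2 had 1 array far from the other 3, by Dixon's criterion for 4 values. Chance meets it in about 1 group in 20 where the 4 values share 1 mean. The ratios here differ by dye orientation, so that rate need not hold. The fifth brightest *Nlgn1* probe read -0.164 in replicate d and 0.133 to 0.151 in the other arrays. The ninth brightest *Nrxn3* probe, which was not above background on all arrays, read -0.0376 in replicate d and 0.0333 to 0.0408 in the others.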

How the results depend on the processing

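With only 4 arrays and 2 residual degrees of freedom, calls depended on the test more than the ratios did. limma called 0 of the 32 genes and 0 of the 41174 probes. These counts became 2 and 167 with median centring, 12 (10 lower, 2 higher) and 3051 with the median spot signal, and 2 and 52 without dim probes. With an intensity trend they were 4 (*Dlgap4*, *Lrrc4b*, *Nrxn3*, *Shank3*, all lower) and 399. *Nrxn3* was called lower under the trend and with the median spot signal through a probe other than its brightest, which stayed positive. The counts were 2 and 249 at an adjusted p under 0.10, 15 and 7036 at an unadjusted p under 0.05, and 2 and 113 by F2. They stayed at 0 with normexp, with no dye term, with the authors' table and with any array left out (0 to 0). A gene with many probes has more chances to be called, so the gene and probe counts cannot be compared as shares. By single probe, 16 of the 91 were lower and 6 higher at the unadjusted p, beside 3393 lower and 3643 higher of the 41174. F2 called 2 genes, 3 with the median spot signal, 2 under the other settings with 4 arrays, and 0 without replicate a, b, c or d (0 to 0). The median ratio of the 32 genes, -0.057, was -0.085 without dim probes (23 genes left) and -0.013 as a mean over probes. The count of 13 genes with 1 sign on all arrays was 4 with median centring, 10 with normexp and with the median spot signal, and 12 with the authors' table. Leaving out an array can only keep or raise it. Of the 271 ratios of single genes that a setting could change, 254 kept their direction, and 21 of the 32 genes kept it throughout. Dropping the dye term, adding the trend or removing dim probes cannot move a ratio. The cause of these shifts was not tested. No paired analysis was possible because there is 1 mutant group against 1 pool and the replicate letters pair no samples. Which arrays shared a slide is not known here, and no slide or scan batch was analysed.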
